A study of Chlamydomonas reinhardtii with 4 samples.

Results

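Nuclear genes for factors that act on single plastid transcripts were followed in the unicellular green alga Chlamydomonas reinhardtii exposed to silver nanoparticles (AgNPs). The genes were taken by symbol: 6 of the 8 symbols chosen (MCA1, TCA1, TBC2, MBB1, RAA3 and TAB2) name a row among the 17741 genes of the tables, and NAC2 and RAA1 were not analysed here. The set was drawn up because MCA1 was among the lowest genes at 12 h with AgNPs, so the AgNP ratio of MCA1 at 12 h chose it, and that value is a description. The 4 groups were cells sampled at 12 h with 0.5 mg/L AgNPs, at 12 h without (control), at 2 h with 0.5 mg/L AgNPs and at 2 h without. All were wild-type cells of strain FACHB-1121 grown with agitation in the light in TAP, an acetate medium. Each group holds 1 library, so all differences compare single libraries, have no replicate check and carry no p-value. Values are FPKM, fragments scaled to transcript length and library size, and a log2 ratio is taken between FPKM + 1 of 2 libraries.

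Chloroplast genes are few and are largely controlled after transcription by proteins made from nuclear genes. In Chlamydomonas many of these proteins carry helical repeats that bind RNA and serve 1 plastid transcript each, to protect, splice or translate it. The target proteins are core subunits of the photosynthetic complexes: petA encodes cytochrome f of the cytochrome b6f complex, psbB and psbC encode chlorophyll-binding proteins of photosystem II, and psaA and psaB encode the reaction centre proteins of photosystem I. The plastid transcripts themselves were not analysed here.

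The factors were rare messages. MCA1, TAB2, TBC2, MBB1 and TCA1 averaged 7.24, 7.05, 4.60, 2.89 and 2.05 FPKM over the 4 libraries, and RAA3 averaged 0.182. MCA1 and TAB2 were the 2 members that averaged 5 FPKM or more, the limit for the 3271 genes that serve as background. By contrast, nuclear genes for subunits of the target complexes stood far higher. The cytochrome b6f subunit gene PETM, for example, had 10222 FPKM under AgNPs and 6765 in the control at 12 h. The photosynthesis genes RBCS1, RBCS2, PSAD, PSBO and LHCA3, expected to be abundant in green cells, lay above 98.7% of all genes in every library. FPKM sums were 1663726 and 1252796 in the AgNP libraries at 12 h and 2 h, and 1143199 and 492502 in the controls, so ratios depend on how libraries are scaled. The median background gene was itself shifted by 0.44 with AgNPs at 12 h, 0.48 with AgNPs at 2 h, 0.20 between times with AgNPs and 0.26 between times in the controls. Absolute depth is unknown, but the commonest ratio between low values (below 0.2 FPKM) gave a depth relative to the 2 h control of 0.363 for the 12 h AgNP library and of 0.566 for both the 2 h AgNP library and the 12 h control. Only 10.0% of the low genes lay near that ratio for the 12 h AgNP library, 14.0% for the 2 h AgNP library and 12.9% for the 12 h control. These depths are therefore rough. If they hold, values of about 1 FPKM and less are least precise in the 12 h AgNP library.

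**Figure D1:**
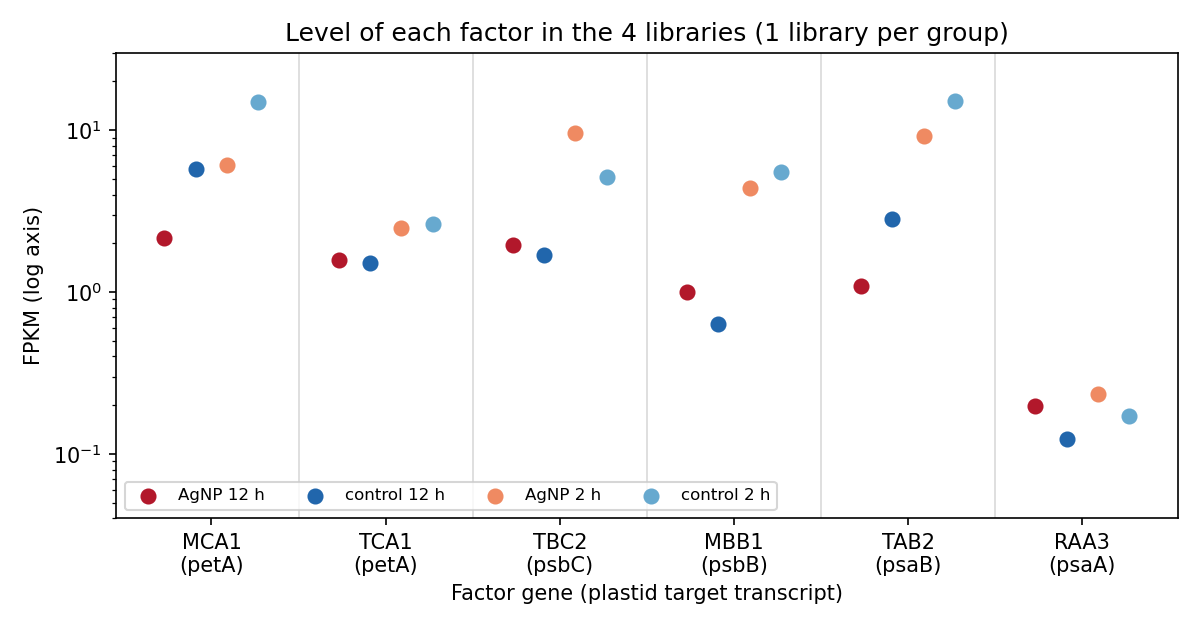
FPKM (log axis) of each factor gene, with its plastid target transcript in brackets, in the 12 h AgNP, 12 h control, 2 h AgNP and 2 h control libraries; each point is 1 library. MCA1, TAB2, TBC2, MBB1 and TCA1 have both 12 h points below both 2 h points, and MCA1 and TAB2 also have each AgNP point below the control of its time.

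MCA1 and TCA1 both serve petA. MCA1, a pentatricopeptide repeat (PPR) protein, stabilises the petA transcript, and TCA1 activates its translation. MCA1 (Cre08.g358250, chromosome 8, 16576 to 21855, build v5.5) had 2.14 FPKM in the AgNP library and 5.79 in the control at 12 h, and 6.09 in the AgNP library and 15.0 in the control at 2 h. The AgNP library was lower at both times, and the 2 h AgNP library lay close to the 12 h control. The FPKM ratio of AgNPs over control was 0.371 at 12 h and 0.407 at 2 h (log2 ratios -1.11 and -1.17).

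Among the 3271 background genes 10 had a lower ratio than MCA1 at 12 h and 29 at 2 h. MCA1 was the fourth lowest of the 1176 with a gene symbol at 12 h, between PCK1 (-1.24) and POR1 (-1.10), with FAP113 (-1.26) and CLPB3 (-0.98) next. PCK1 encodes phosphoenolpyruvate carboxykinase and POR1 protochlorophyllide reductase. At 2 h, in libraries that did not choose the set, 17 of the 1176 lay lower than MCA1. The members were, however, chosen with earlier results of these data known.

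TCA1 (Cre09.g415500, chromosome 9, 7680272 to 7684767) stood at 1.58 FPKM under AgNPs and 1.51 in the control at 12 h, and at 2.49 and 2.63 at 2 h. Its AgNP and control libraries were nearly level at each time on the deposited scale, with log2 ratios of 0.04 and -0.06. With centred ratios these were -0.40 and -0.54, and with equal sums -0.26 and -1.12, the last past 2-fold. The 2 factors of petA thus stood apart. Within 1 library, where scaling between libraries does not enter, MCA1 stood at 1.36 times TCA1 with AgNPs and 3.84 times in the control at 12 h, and at 2.44 and 5.68 times at 2 h. The 12 h pair holds the MCA1 values that chose the set, so it is a description. Only the 2 h pair comes from libraries that did not choose the set, though the genes were chosen with earlier results of these data known. Whether these ratios differ beyond the error of single libraries was not tested.

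TBC2 and MBB1 serve photosystem II. TBC2 is needed to translate psbC, and MBB1, a tetratricopeptide repeat protein, to process and stabilise the psbB transcript. TBC2 (Cre09.g388356, chromosome 9, 3310934 to 3318859) stood at 1.94 FPKM under AgNPs and 1.70 in the control at 12 h, and at 9.60 and 5.16 at 2 h. It was the member with the highest AgNP ratio at 2 h (0.78), above 67.1% of the background genes, and at 12 h the ratio was 0.13. With ratios centred on the median background gene the 2 h value was 0.30, and with equal library sums -0.41. With equal sums the median background gene itself was at -0.77 at 2 h. Of 7 other settings 6 kept the sign of TBC2 at 2 h, which turned with equal sums only, and 5 kept it at 12 h.

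MBB1 (Cre09.g416200, chromosome 9, 7744642 to 7749093) stood at 0.995 FPKM under AgNPs and 0.630 in the control at 12 h, and at 4.41 and 5.52 at 2 h. The AgNP library was the higher at 12 h and the lower at 2 h, with log2 ratios of 0.29 and -0.27. With centred ratios both were negative (-0.15 and -0.75). MBB1 lies 59875 bp from TCA1 on chromosome 9, with no other member between them. TBC2 stood at 1.95 and 2.69 times MBB1 in the AgNP and control libraries at 12 h and at 2.18 times with AgNPs at 2 h. In the 2 h control the order was the other way, at 0.934 times.

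TAB2 and RAA3 serve photosystem I. TAB2 is needed to translate psaB, and RAA3 to join the separate precursors of the psaA transcript by trans-splicing. TAB2 (Cre17.g702500, chromosome 17, 868167 to 872041) stood at 1.09 FPKM under AgNPs and 2.82 in the control at 12 h, and at 9.19 and 15.1 at 2 h. As for MCA1, the AgNP library was the lower at both times. The log2 ratios were -0.87 and -0.66, short of 2-fold. On the FPKM values without the added 1 the 12 h ratio was 0.386, close to that of MCA1, and the 2 h ratio was 0.609. With centred ratios TAB2 was past 2-fold at both times (-1.31 and -1.14). It lay above 1.01% of the background genes at 12 h and 4.62% at 2 h.

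RAA3 (Cre12.g531050, chromosome 12) stood at 0.199 FPKM under AgNPs and 0.123 in the control at 12 h, and at 0.235 and 0.171 at 2 h. All 4 values are too low for a fold to be given. The tables give it the locus 5498360 to 5510445, which the ammonium transporter gene AMT8, listed at 0 in all 4 libraries, has as well. In the RefSeq gene table of the same assembly RAA3 spans 5503986 to 5510445. How fragments of this joint locus were assigned is not given in the sources used here.

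Counted together, 1 of the 6 members, MCA1, was at least 2-fold lower with AgNPs at 12 h and 0 were higher. Of the background genes 0.459% were that much lower and 16.7% higher, and since MCA1 chose the set nothing can be read from this count. At 2 h the count was again 1 lower (MCA1) and 0 higher, against 1.62% and 22% of background genes. Most members have a mean below 5 FPKM, and among the 8033 genes that averaged 1 FPKM or more 0.585% were lower and 8.38% higher at 12 h, and 2.35% lower and 10.2% higher at 2 h. The median ratio of the 6 members was 0.07 at 12 h and -0.16 at 2 h. It was 0.44 and 0.48 for the background genes and 0.12 and 0.15 for the 8033. Ratios also followed the span of the gene on the genome. With that trend removed the members' medians were -0.01 at 12 h and -0.45 at 2 h. For the 5 members that averaged 1 FPKM or more, without RAA3 and its joint locus, the medians were -0.13 and -0.56. Those of the background genes were then 0.001 and 0.002, and those of the 8033 -0.12 and -0.21. At 12 h the median of all 6 was thus about level with the background genes, and that of the 5 with the 8033. Both stayed below either at 2 h. With centred ratios 2 members (MCA1 and TAB2) were at least 2-fold lower and 0 higher at each time, against 175 lower and 99 higher background genes at 12 h and 228 and 179 at 2 h. With equal sums 4 members were at least 2-fold lower at 2 h, as were 1163 background genes. As deposited and read against 0, the set was split. MCA1 and TAB2 were low and TCA1 was level on that scale. TBC2 was above 0 at both times, and MBB1 had a different sign at each. With centred ratios all 6 were below 0 at 12 h, and 5 were at 2 h, with TBC2 above. Of the 8033 genes 5600 were then below 0 at 12 h and 5666 at 2 h. Of the 3271 background genes 1635 were at each time. The added 1 holds RAA3 near 0, so its sign there follows from the centring. TBC2 lay above 31.9% of background genes at 12 h, and TCA1 above 27.6% at 12 h and 21.0% at 2 h.

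**Figure D2:**
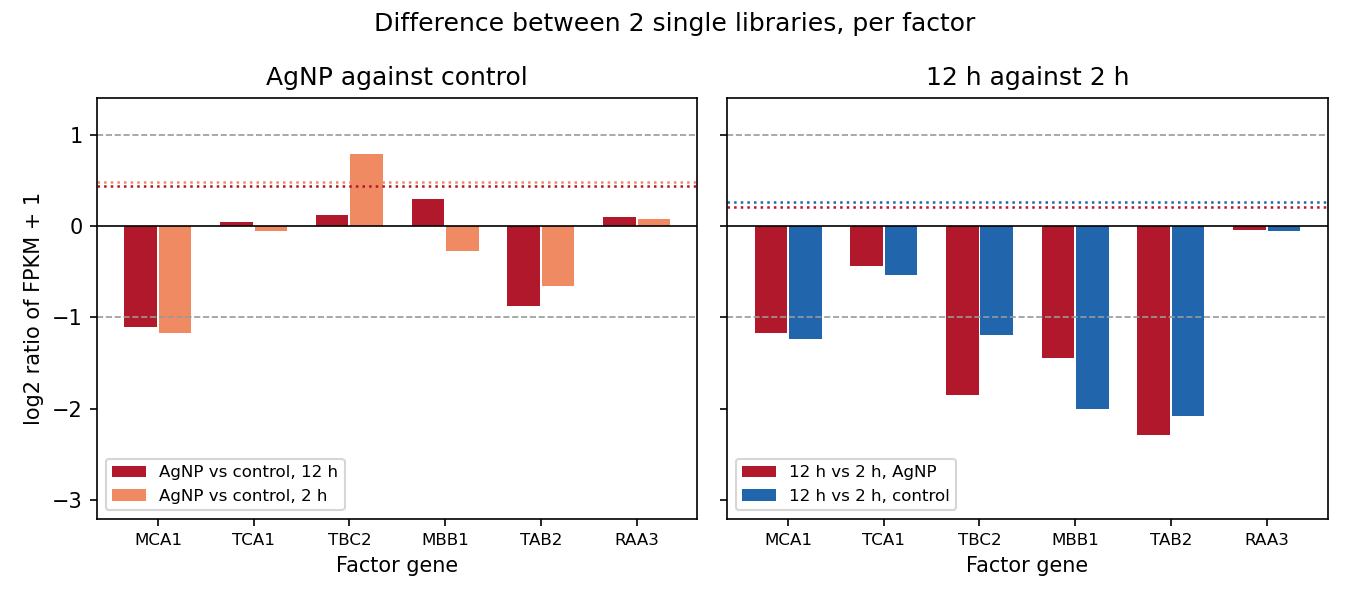
Log2 ratio of FPKM + 1 for each factor gene, AgNP over control (left) and 12 h over 2 h (right); each bar compares 2 single libraries, dashed grey lines mark 2-fold and dotted lines the median of the 3271 background genes. MCA1 and TAB2 are negative in both AgNP comparisons, and all 6 genes are negative in both time comparisons, RAA3 by 0.04 and 0.06 only.

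For TCA1, TBC2, MBB1 and TAB2 the difference between 12 h and 2 h was larger than that between AgNPs and control, and for MCA1 the 2 were about equal. Of the 6, 4 (MCA1, TBC2, MBB1 and TAB2) were at least 2-fold lower at 12 h with AgNPs. The same 4 were so in the controls, and 0 were higher in either. The 12 h libraries that chose MCA1 enter its time ratios, so its place in these counts and medians is not free of that choice. In the background 8.07% of genes were lower with AgNPs and 7.8% in the controls, and 17.1% and 20.2% were higher. Among genes that averaged 1 FPKM or more 5.99% were lower with AgNPs and 6.34% in the controls, and 11.3% and 12% were higher. With centred ratios the members' counts stayed at 4 and 4, while 405 background genes were lower and 381 higher with AgNPs, and 406 and 436 in the controls. The median log2 ratio of the 6 was -1.31 with AgNPs and -1.21 in the controls, against 0.20 and 0.26 for the background genes and 0.02 and 0.03 for the 8033 genes averaging 1 FPKM or more.

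TAB2 at 12 h had 0.119 of its 2 h FPKM with AgNPs and 0.187 in the controls (log2 ratios of FPKM + 1 of -2.29 and -2.07). In the AgNP libraries 21 of the 3271 background genes had a lower ratio, and in the controls 27 did. MBB1 at 12 h had 0.226 of its 2 h FPKM with AgNPs and 0.114 in the controls, and TBC2 0.203 and 0.329. On the deposited scale the gap between 12 h and 2 h was thus the wider with AgNPs for TBC2 and the wider in the controls for MBB1. For TBC2 this turned with equal sums (log2 ratios -2.06 with AgNPs and -2.26 in the controls). The median background gene was then at -0.17 with AgNPs and -0.87 in the controls. MCA1 had nearly the same time ratio in both (-1.17 and -1.23), and TCA1, with -0.44 and -0.54, stayed short of 2-fold as deposited, but with equal sums had -1.503 in the controls.

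**Figure D3:**
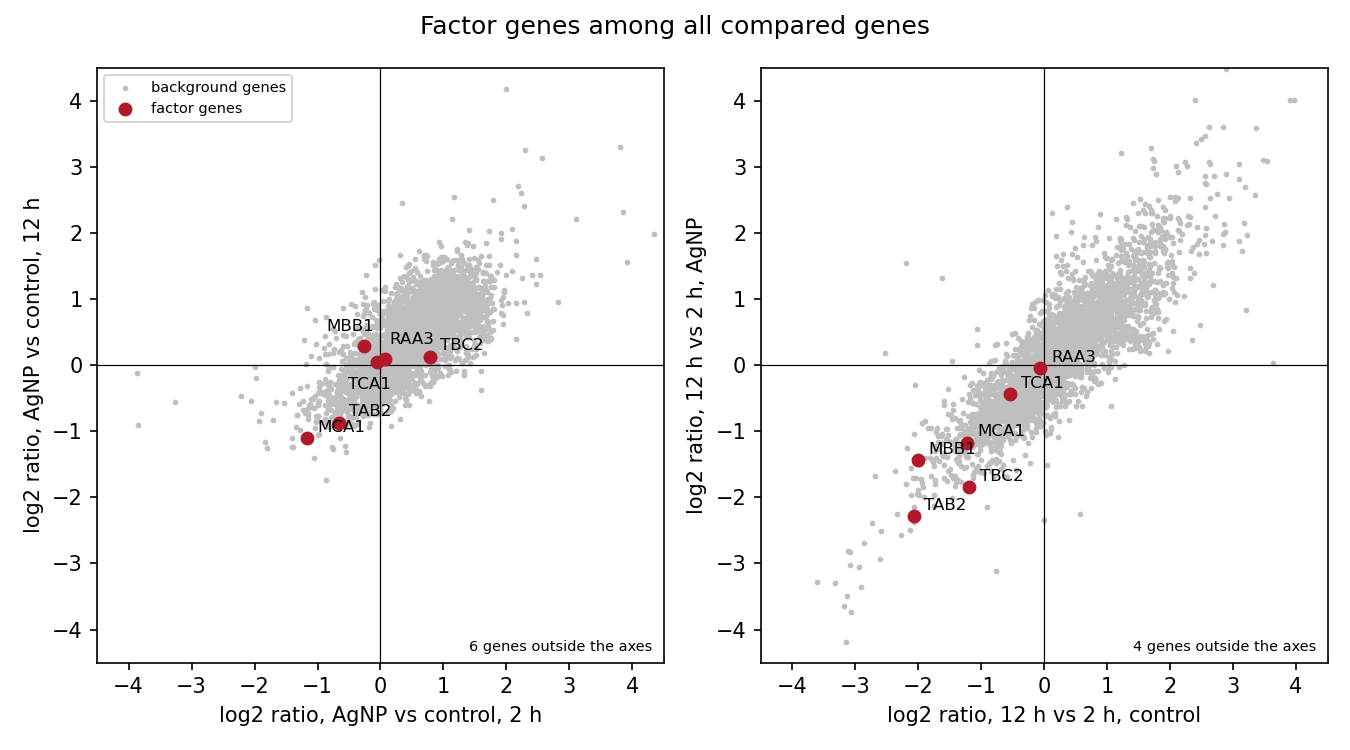
Log2 ratios of the factor genes (red) among the 3271 background genes (grey), for AgNPs over control at 12 h against 2 h (left) and for 12 h over 2 h with AgNPs against controls (right). MCA1 and TAB2 lie at the lower left edge on the left, and MCA1, TBC2, MBB1 and TAB2 at the lower left on the right.

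The place of a gene within its library needs no scaling between libraries. TAB2 stood above 58.7% of all 17741 genes in the 12 h AgNP library and above 74.9% in the 12 h control, and above 87.6% and 92.9% at 2 h. MCA1 stood above 70.1% and 84.3% at 12 h and above 83.6% and 92.9% at 2 h. For MBB1 the shares were 57.0% with AgNPs and 46.1% in the control at 12 h, and 80.0% and 84.5% at 2 h. For TBC2 they were 68.6% with AgNPs and 65.9% in the control at 12 h, and 87.9% and 83.6% at 2 h. TCA1 moved least of the 5 expressed members, at 65.2% and 63.7% at 12 h and 72.3% and 73.1% at 2 h.

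The order of the members differed between the libraries. MCA1 was the most abundant at 12 h both with AgNPs and in the control, while TBC2 led in the 2 h AgNP library and TAB2, level with MCA1, in the 2 h control. RAA3 was lowest in all 4. The expressed members lay within 0.995 to 2.14 FPKM in the 12 h AgNP library, a narrower span than the 0.630 to 5.79 of the 12 h control, the 2.49 to 9.60 of the 2 h AgNP library and the 2.63 to 15.1 of the 2 h control.

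**Figure D4:**
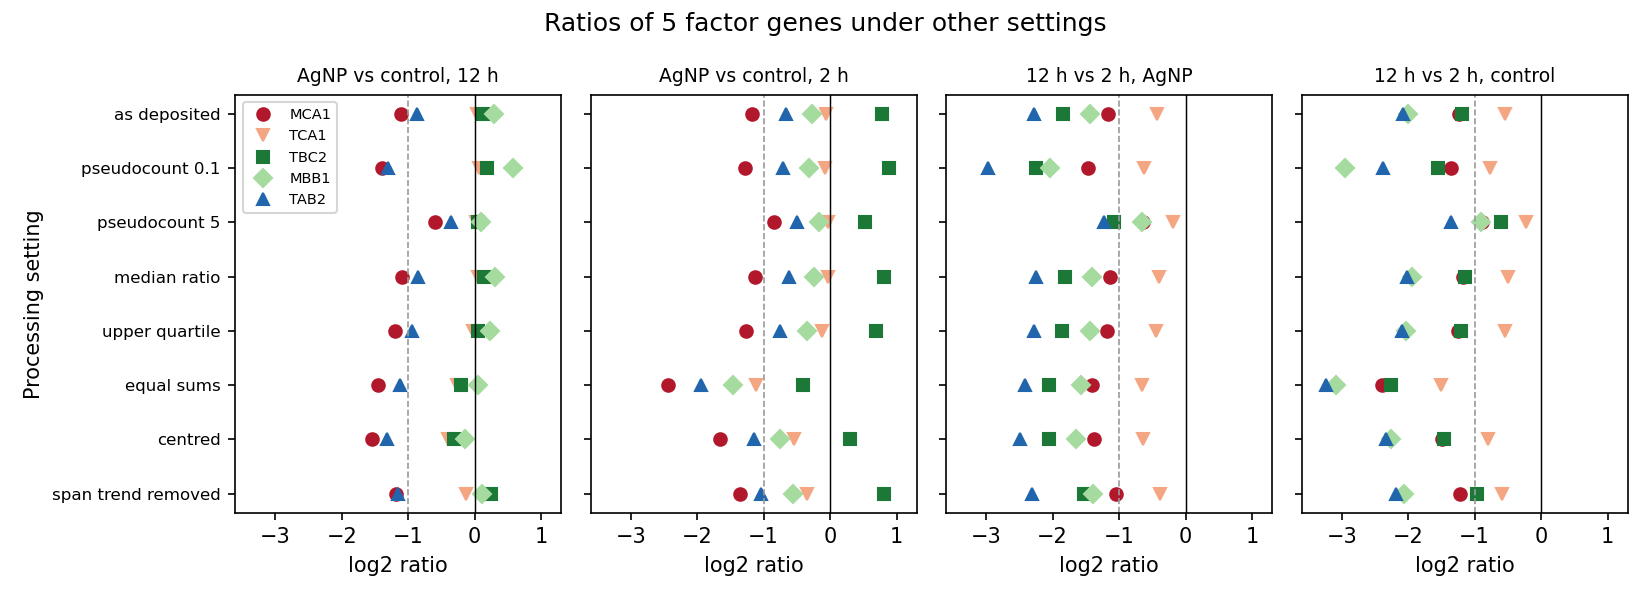
Log2 ratios of the 5 factor genes above 1 FPKM on average under the deposited scale and 7 other settings, 1 panel per comparison; the dashed line marks a 2-fold lower value. MCA1 and TAB2 stay left of 0 in all panels, and TBC2 changes side in both AgNP panels.

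The genes with a symbol whose 4 values were most like those of MCA1 were PHC3, PCK1, HSP70C, FAD7 and EFG2, out of 1175 compared. Likeness was the distance between log2(FPKM + 1) values after the mean of each gene over the 4 libraries was taken away, and it was 0.33 for PHC3 and 0.47 for EFG2. PHC3, a pherophorin gene, stood at 21.7 FPKM under AgNPs and 40.4 in the control at 12 h, and at 58.4 and 120 at 2 h. PCK1 had 39.0 and 93.5 FPKM at 12 h, and 71.0 and 187 at 2 h.

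Of 36 symbols listed for other genes of plastid transcription, RNA processing and translation, 6 had a row: RAA2, RAT1, RAT2, TBA1, RNJ1 and RPOD. With AgNPs 0 of the 6 were at least 2-fold lower at either time, and 1 was higher at 12 h and 0 at 2 h. Of the background genes 0.459% were as much lower and 16.7% higher at 12 h, and 1.62% and 22% at 2 h. The count of 1 in 6 is thus no more than the background share. The gene that was higher at 12 h was RAT1, known from processing of the small RNA that takes part in psaA trans-splicing. It had 34.1 FPKM under AgNPs and 16.0 in the control at 12 h, and 15.7 and 7.80 at 2 h. With centred ratios RAT1 was below 2-fold at both times. With AgNPs at 2 h 1 of the 6 was then at least 2-fold lower (RNJ1, -1.05), and 2 were with equal sums. Of the background genes 6.97% were as much lower with centred ratios and 35.6% with equal sums. The lowest ratio at 12 h was that of TBA1, a gene linked to translation of psbA (7.43 and 10.1 FPKM; log2 ratio -0.40). At 2 h it was that of RNJ1, which encodes ribonuclease J (1.02 and 2.01 FPKM; -0.57).

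As deposited 0 of these 6 genes were at least 2-fold lower at 12 h than at 2 h, against 4 of the 6 members. Of the background genes 8.07% were with AgNPs and 7.8% in the controls. With equal sums 1 of these 6 was lower with AgNPs and 3 in the controls, against 4 and 5 members. Background shares were then 16% and 43.6%. RAT2 averaged 0.379 FPKM, where the added 1 holds ratios near 0. The medians of these 6 genes were 0.16 with AgNPs and -0.20 in the controls. RAT1 was higher at 12 h in both, and TBA1 stood at 10.1 FPKM at 12 h and 2.43 at 2 h in the controls. RPOD, the gene for the plastid sigma factor, was the lowest with AgNPs, at 3.01 FPKM at 12 h and 5.78 at 2 h (-0.76). RAT1 lies on chromosome 9 as TBC2 does, and stood at 17.6 times TBC2 with AgNPs and 9.45 times in the control at 12 h, against 1.63 and 1.51 times at 2 h. No test of members against these genes was made.

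A further 6 genes with PPR symbols, the repeat class of MCA1, were picked by symbol after the tables had been opened (PPR1, PPR5, PPR7, PPR8, PPR9 and PPR10). With AgNPs 0 of them were at least 2-fold apart at either time. The log2 ratios ran from -0.23 to 0.97 at 12 h and from -0.55 to 0.87 at 2 h. PPR5, PPR8, PPR9 and PPR10 averaged below 1 FPKM, where the added 1 holds ratios near 0. The count therefore cannot show that these genes were unchanged. Without the added 1 the FPKM ratio of PPR9 was 4.41 at 12 h and 2.81 at 2 h. At 2 h the ratio was 0.332 for PPR5 and 0.320 for PPR10, and at 12 h it was 2.08 for PPR7. The precision of the values below 1 FPKM is unknown. At 2 h 1 of the PPR genes was at least 2-fold lower with centred ratios (PPR5, -1.03) and 3 were with equal sums. The shares of background genes were 6.97% and 35.6%. PPR1 and PPR9 were at least 2-fold lower at 12 h than at 2 h with AgNPs, and PPR1 in the controls. Of the background genes 8.07% and 7.8% were as much lower. PPR1 stood at 0.198 FPKM at 12 h and 1.73 at 2 h with AgNPs, and at 0.294 and 2.21 in the controls.

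Nuclear subunit genes of the target complexes had medians above 0 with AgNPs on the deposited scale, but the sign depended on the setting. It turned for photosystem II at both times and for photosystem I at 2 h with equal sums, and with the span trend removed for photosystem II at both times (-0.16 and -0.12) and for cytochrome b6f at 12 h (-0.16), while photosystem I at 12 h came to about 0. With AgNPs at 12 h the medians were 0.59 for 4 cytochrome b6f, 0.48 for 6 photosystem II and 0.81 for 10 photosystem I subunit genes. Of them 0, 2 and 3 were at least 2-fold higher, as were 16.7% of background genes. At 2 h the medians were 1.53, 0.54 and 1.18, with 3, 2 and 7 higher, against 22% of background genes. With centred ratios the counts were 0, 0 and 0 at 12 h and 3, 0 and 0 at 2 h. The background shares were then 3.03% and 5.47%. With equal sums 0 genes of any of the 3 lists were higher at 2 h, against 0.795% of background genes. The subunit genes nearest these medians at 12 h were PETM with PETO, PSBO with PSBP1, and PSAI with PSAK.

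Assembly factors of cytochrome b6f were also low at 12 h. Of 7 symbols listed 4 had a row (CCB1, CCB2, CCB4 and CCS1), and CCB4 and CCS1 averaged only 2.19 and 1.84 FPKM. All 4 had negative time ratios with AgNPs and in the controls, as had 1330 and 1229 of the 3271 background genes. At 12 h 2 were at least 2-fold lower than at 2 h with AgNPs and 3 in the controls. Background shares were 8.07% and 7.8%, and 5.99% and 6.34% among genes that averaged 1 FPKM or more. CCS1, needed to attach heme to cytochrome f, the petA product, stood at 0.584 FPKM at 12 h and 2.81 at 2 h with AgNPs, and at 0.829 and 3.14 in the controls. CCB1, which acts in heme attachment to cytochrome b6, stood at 10.8 and 23.4 with AgNPs and at 6.49 and 17.0 in the controls. With AgNPs against control 0 of the 4 were 2-fold apart at either time as deposited. Of the background genes 0.459% were 2-fold lower and 16.7% higher at 12 h, and 1.62% and 22% at 2 h. With equal sums 2 were lower at 2 h, as were 35.6% of background genes.

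Ratios in these tables also followed the span of the gene on the genome. In the eighth of background genes that holds the span of MCA1 (4577 to 5876 bp) the median log2 ratio was 0.09 with AgNPs at 12 h and 0.20 at 2 h, and -0.10 and 0.05 between times with AgNPs and in the controls. MCA1 spans 5280 bp and TAB2 3875 bp. After removal of the trend MCA1 had AgNP ratios of -1.18 at 12 h and -1.36 at 2 h, and TAB2 -1.16 and -1.03. Its removal left the 12 h to 2 h ratios past 2-fold for MCA1 (-1.05 with AgNPs and -1.22 in the controls), MBB1 (-1.39 and -2.06) and TAB2 (-2.31 and -2.19). TBC2 stayed past it with AgNPs (-1.53) and fell just short in the controls (-0.96).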

How the data were processed

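Libraries of mRNA from 4 algal samples were sequenced (Illumina HiSeq). The authors deposited 1 table of FPKM for each, per the file headers. Cuffdiff appears, with no version, among the tools of the submitters' processing notes. The aligner, any filter and the scaling between libraries were not given in the sources used. Groups came from the sample titles (CK is the control), with 1 library each. Members and gene lists were chosen with earlier results of these data known. Named genes are all members, listed factors at least 2-fold apart or at the extremes, the subunits nearest each list median, the 5 genes most like MCA1 and its 2 neighbours on either side in the 12 h ranking. Ratios are log2 of FPKM + 1 (which understates changes of low genes), 2-fold was the threshold, and 3271 genes averaging 5 FPKM or more formed the background; a limit of 1 FPKM was added after the data were seen. Starts were printed 1-based: 17558 of 17741 equalled RefSeq starts of build v5.5 after 1 was added. No test was run. Alternatives were pseudocounts of 0.1 and 5, 4 other scalings or centrings, removal of a lowess span trend (fraction 0.5), thresholds of 1.5-fold and 4-fold, and no filter or 20 FPKM. The code was tested on simulated data. The work used matplotlib 3.10.9, statsmodels 0.14.6, pandas 2.3.3 and numpy 2.4.6 under Python 3.11.15.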

Additional observations from a re-analysis of the deposited data

Results flagged for a closer look

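In 2 members the AgNP ratio was above 0 at 12 h and below 0 at 2 h. For MBB1 the log2 ratio was 0.29 at 12 h and -0.27 at 2 h, and the 2 differed by 0.56. For TCA1 it was 0.04 at 12 h and -0.06 at 2 h, and the 2 differed by 0.10. The differences were not tested, since each ratio rests on 1 library per group. With centred ratios both genes had negative values at both times.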

How the results depend on the processing

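Each group holds 1 library and the labels carry no replicate numbers, so no replicate could be left out. A fit that pairs AgNPs with control by time would leave 1 residual degree of freedom and was not run. MCA1 was lower with AgNPs and lower at 12 h under all 7 changes of pseudocount or scale, at -1.55 to -0.59 for AgNPs at 12 h, -2.44 to -0.85 for AgNPs at 2 h, -1.46 to -0.63 between times with AgNPs and -2.39 to -0.89 in the controls (log2). It fell short of 2-fold only with the pseudocount of 5. TAB2 kept its sign in the same 4 comparisons, at -1.31 to -0.36, -1.94 to -0.50, -2.97 to -1.22 and -3.23 to -1.36. The count of members at least 2-fold lower with AgNPs at 12 h, 1 as deposited, was 2 with the pseudocount of 0.1, equal sums, centring, span trend removal or the 1.5-fold threshold, and 0 with the pseudocount of 5 or the 4-fold threshold. In the settings that gave 2, in that order, 0.887%, 5.78%, 5.35%, 2.6% and 4.98% of background genes were as much lower. At 2 h, also 1, it was 4 with equal sums, 2 with centring, span trend removal or 1.5-fold, and 0 with the pseudocount of 5 or 4-fold. Of the background genes 35.6% were as much lower with equal sums, and 6.97%, 4.89% and 5.9% with centring, span trend removal and 1.5-fold. At 1.5-fold 1 member (TBC2) was higher, as were 43.2% of background genes. The count of 4 members lower at 12 h fell with the pseudocount of 5, to 2 with AgNPs and 1 in the controls. The background shares were then 3.7% and 3.82%. At 4-fold the count was 1 in each, against 0.887% of background genes with AgNPs and 1.16% in the controls. In the controls the count was 5 with equal sums, as TCA1 passed too (-1.503), and 3 with the span trend removed. Of the background genes 43.6% were as much lower in the controls with equal sums and 11.1% with the span trend removed. The AgNP ratios at the 2 times differed by 2-fold or more for 0 members, and for 1 (MBB1) with equal sums and 1 (TBC2) at 1.5-fold. Median ratio and upper quartile scaling changed none of these counts. FPKM gives no counting interval, so the precision of values near 1 FPKM is unknown.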
